A study of Mus musculus with 10 samples.

Results

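The 8 genes described here are markers of the enteric nervous system, the network of neurons and glia inside the gut wall. S100b, Sox10 and Gfap mark enteric glia, and Elavl4, Uchl1, Ret, Nos1 and Vip mark enteric neurons. Probe sets were taken by gene symbol from the platform annotation, which gave 19 probe sets for the 8 genes, 8 of them for the glia genes and 11 for the neuron genes, among 45101 probe sets for 18193 genes. Each gene is represented by its brightest probe set, and a gene was tested if that probe set lay above the array's median on at least 2 arrays. Of the 8 genes 7 passed, among 12568 genes in all, and Gfap did not.

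RNA of the distal colorectum, from about 1 cm above the anus, was measured in C57BL/6J mice lacking Pdgfc (Pdgfc-/-, knockout) and in mice with the intact gene (Pdgfc+/+, wild type). Pdgfc encodes a secreted growth factor for mesenchymal cells. The groups were knockout 8 weeks after 25 Gy of local γ-irradiation given at 2.14 Gy/min (n = 3), wild type after the same irradiation (n = 3), unirradiated knockout (n = 2) and unirradiated wild type (n = 2). Each animal had 1 array, so precision is limited by how few arrays a group holds. The labels used here do not give the mice's age or sex, or the cells in which Pdgfc was deleted. All values are log2 signals, and all differences are log2 differences given with their standard error.

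Enteric neurons lie in plexuses between and beneath the muscle layers and set motility, secretion and blood flow without direct orders from the brain. Inhibitory motor neurons relax the gut muscle with nitric oxide and vasoactive intestinal peptide, while excitatory ones use acetylcholine and tachykinins. Enteric glia surround the neurons, resemble astrocytes and the Schwann cells of peripheral nerves, and arise from the same neural crest precursors. In a sample of whole tissue, fewer cells of a type and less RNA per cell cannot be told apart.

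Pdgfc itself served as a check of the genotype labels. Its signal was 7.15, 6.26 and 7.10 in irradiated knockout, 8.56, 8.75 and 8.67 in irradiated wild type, 6.42 and 5.62 in unirradiated knockout and 7.01 and 7.50 in unirradiated wild type. The knockout arrays lay below the wild type arrays in both conditions, with differences of -1.82 ± 0.32 after irradiation (adjusted p = 0.69, limma) and -1.23 ± 0.40 without it (adjusted p = 0.16), neither past the threshold of 0.05. Where this probe set lies relative to the deletion was not analysed here. Xist, which female cells transcribe, was at 13.48 to 14.18 in all 3 irradiated wild type arrays and in replicate 1 of irradiated knockout. It was at 6.19 to 7.27 in the other 6 arrays, so in wild type irradiation and sex cannot be told apart. Among irradiated arrays only replicate 1 of knockout separates sex from genotype, which also bears on the difference of the irradiation effects. The Gapdh 3′ minus 5′ signal, a measure of RNA integrity, lay at -0.54 to -0.35 in irradiated and -0.32 to 0.02 in unirradiated arrays. The same measure for Actb overlapped, at 0.44 to 0.58 in irradiated and 0.35 to 0.66 in unirradiated arrays. The part of RNA integrity in the results was not tested.

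Vip, which encodes vasoactive intestinal peptide, was the only one of the 7 tested genes whose brightest probe set passed the test in any of the comparisons. The 250 bases before its start site, from RefSeq (GRCm38.p6), are printed here because of that result, beside the same window of Nos1, which marks the same class of inhibitory neurons and showed the largest difference in knockout. Capitals mark the letters TGACG, a partial site of cAMP-responsive factors, on either strand (CGTCA), and the letters TATAAA of a TATA box on either strand (TTTATA).
Vip, chr10:5638968-5639217, plus strand: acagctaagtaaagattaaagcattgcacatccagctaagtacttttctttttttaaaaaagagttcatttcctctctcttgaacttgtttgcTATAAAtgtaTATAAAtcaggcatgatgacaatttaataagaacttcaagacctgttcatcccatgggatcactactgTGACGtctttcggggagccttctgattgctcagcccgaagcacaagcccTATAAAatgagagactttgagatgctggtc
Nos1, chr5:117866589-117866838, plus strand: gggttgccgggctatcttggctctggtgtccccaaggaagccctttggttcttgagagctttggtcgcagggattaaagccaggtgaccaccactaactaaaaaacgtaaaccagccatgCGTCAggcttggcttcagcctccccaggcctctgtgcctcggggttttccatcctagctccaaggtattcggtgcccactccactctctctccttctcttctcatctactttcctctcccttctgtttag
The Vip window holds TGACG starting 79 bases before the start site and TATAAA at 157, 147 and 30 bases before it. The Nos1 window holds CGTCA starting 130 bases before its start site and no TATAAA. Of 32851 such windows, 17.8% hold TGACG and 12.4% hold TATAAA anywhere on either strand, so the presence of either is not rare. How often a window holds several TATAAA, or TATAAA at 30 bases before the start site, was not counted. Of the 8 genes 6 had a window in the table.

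**Figure D1:**
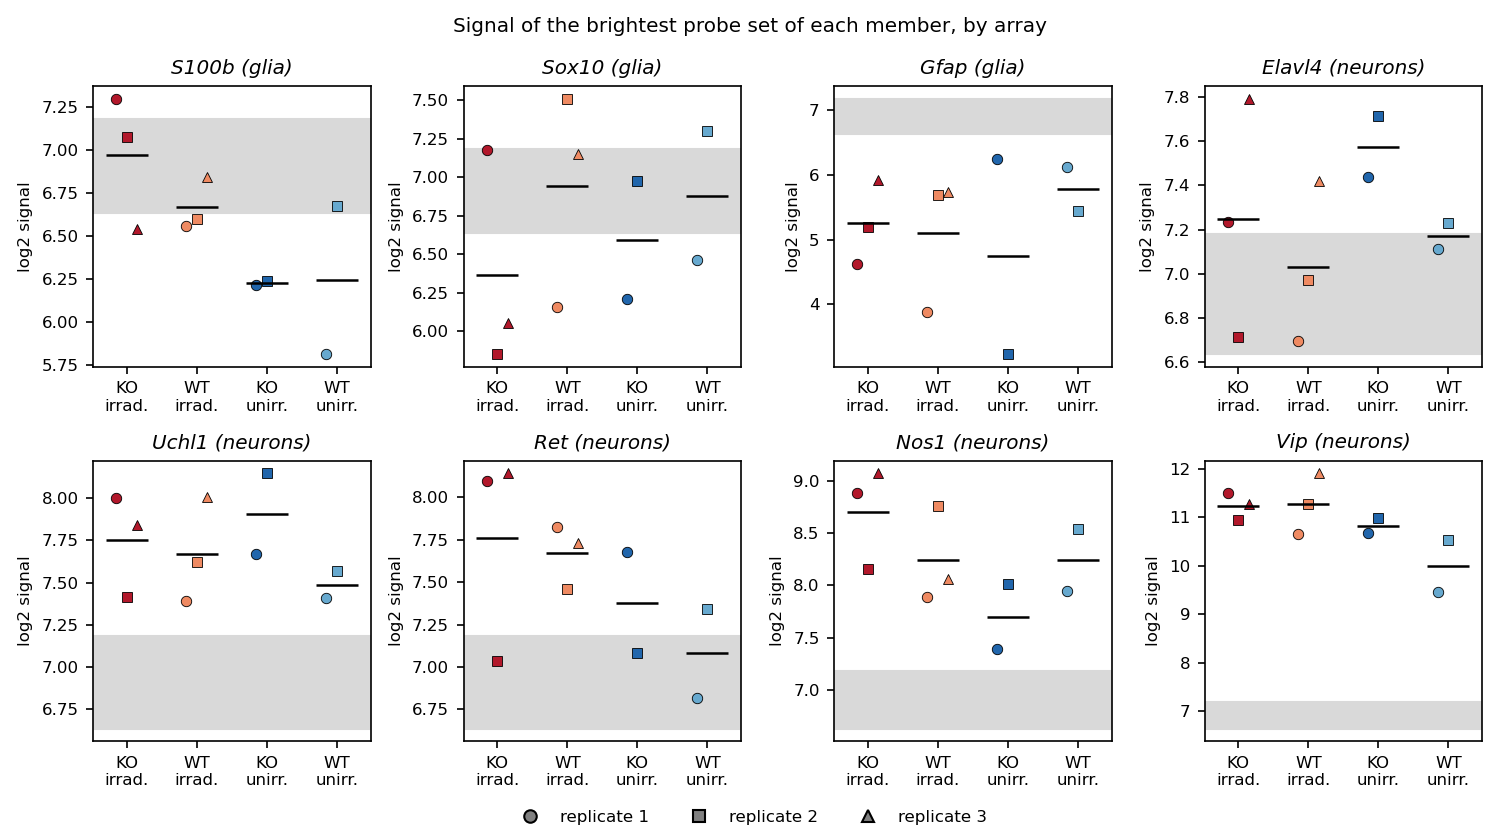
Log2 signal of the brightest probe set of each of the 8 genes on every array, by group, with the group mean as a bar and the range of the array medians shaded grey; the vertical scale differs between panels. Vip lies far above the shaded band on all 10 arrays, Gfap lies below it on all 10, and S100b and Sox10 lie around it.

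Among the glia genes, S100b, which encodes a calcium-binding protein of glia, was at 7.30, 7.07 and 6.54 in irradiated knockout, 6.56, 6.60 and 6.84 in irradiated wild type, 6.22 and 6.24 in unirradiated knockout and 5.82 and 6.67 in unirradiated wild type. All 3 irradiated knockout arrays lay above both unirradiated ones, while the wild type groups overlapped. The difference between irradiated and unirradiated was 0.74 ± 0.39 in knockout (adjusted p = 0.20, limma) and 0.42 ± 0.39 in wild type (adjusted p = 0.47). The signal was dim, above the array's median only on 2 arrays, both of irradiated knockout.

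A second S100b probe set, 1419383_at, gave a larger difference at an even lower signal. It read 6.84, 5.07 and 5.95 in irradiated knockout, 5.66, 5.76 and 5.45 in irradiated wild type, 4.48 and 3.76 in unirradiated knockout and 3.40 and 3.35 in unirradiated wild type. All 6 irradiated arrays lay above all 4 unirradiated arrays, yet every value was below its array's median, where MAS5 signals are imprecise. With every probe set tested without a filter, a setting chosen after seeing the data, S100b at this probe set rose by 2.25 ± 0.61 in wild type (adjusted p = 0.038, limma; 11.9% of all probe sets passed). In knockout the difference was 1.83 ± 0.61 (adjusted p = 0.082; 11.6% of all passed), and averaged over both genotypes it was 2.04 ± 0.43 (adjusted p = 0.0067; 22.0% of all passed). When the probe sets of each gene were averaged, the S100b difference was 1.29 in knockout (adjusted p = 0.043; 19.3% of all genes passed) and 1.34 in wild type (adjusted p = 0.038; 18.7% of all genes passed). S100b entered that test only through the 2 irradiated knockout arrays above the median, so its knockout value is given as a description.

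S100b is also made by fat cells, so adipocyte markers are given beside it. Of 8 adipocyte markers tested, 5 rose in irradiated knockout (14.0% of all genes). In irradiated wild type 5 rose and 1 fell (15.8% and 8.34% of all genes). Of the risen, 1 in knockout and 2 in wild type rose from below the median on the unirradiated arrays. The mean signal of the 8 markers was 8.72 to 11.35 in irradiated knockout and 10.42 to 11.54 in irradiated wild type. It was 7.09 to 8.20 in unirradiated knockout and 6.59 to 6.74 in unirradiated wild type. Melanocytes, which share S100b and Sox10 with glia, had 2 of 8 markers above the filter. Of these Mitf, a transcription factor also present in other cells, rose in both genotypes (14.0% of all genes in knockout and 15.8% in wild type). The other, the pigment cell gene Pmel, differed by -0.20 in knockout and -0.33 in wild type, without a call. The part of either cell type in the S100b values was not tested.

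Sox10, the transcription factor that keeps neural crest cells in the glial lineage, was at 7.18, 5.85 and 6.05 in irradiated knockout, 6.16, 7.51 and 7.15 in irradiated wild type, 6.21 and 6.98 in unirradiated knockout and 6.46 and 7.30 in unirradiated wild type. All groups overlapped. The difference between irradiated and unirradiated was -0.23 ± 0.56 in knockout, with a 95% interval of -1.48 to 1.02, and 0.06 ± 0.56 in wild type, with an interval of -1.19 to 1.31. Both intervals reach past 1 log2 unit above and below 0. Its second probe set, 1451689_a_at, gave 1.51 ± 0.72 in knockout and -0.60 ± 0.72 in wild type (adjusted p = 0.22 and 0.67, limma), and the remaining one, 1425369_a_at, gave -1.33 ± 1.08 in knockout and -1.07 ± 1.08 in wild type.

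Gfap, the intermediate filament protein of astrocytes and of a share of enteric glia, was below the array's median at all 3 of its probe sets on all 10 arrays. At the brightest it read 4.62, 5.20 and 5.93 in irradiated knockout, 3.87, 5.70 and 5.73 in irradiated wild type, 6.26 and 3.23 in unirradiated knockout and 6.12 and 5.44 in unirradiated wild type. The spread inside unirradiated knockout exceeded every difference between group means. No difference in Gfap was therefore measurable here, and its 3 probe sets disagreed in sign in wild type, with -0.68 ± 0.91, 1.32 ± 0.80 and 1.77 ± 1.19.

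**Figure D2:**
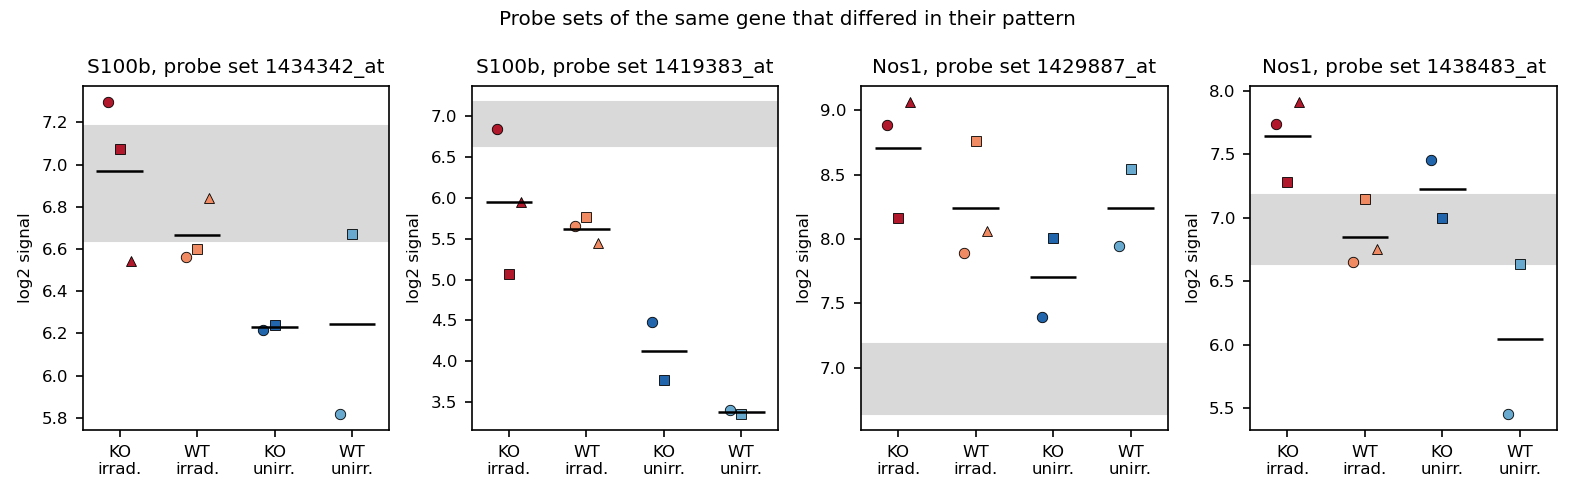
Log2 signal on every array at 2 probe sets of S100b (1434342_at and 1419383_at) and 2 of Nos1 (1429887_at and 1438483_at), by group, with group means as bars and the range of array medians shaded. At the dim S100b probe set all 6 irradiated arrays lie above the 4 unirradiated ones, and the Nos1 probe sets order the groups differently.

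Among the neuron genes, Elavl4, an RNA-binding protein (HuD) found in the nuclei and cytoplasm of neurons and used to count them, was at 7.23, 6.71 and 7.79 in irradiated knockout, 6.70, 6.97 and 7.42 in irradiated wild type, 7.44 and 7.72 in unirradiated knockout and 7.11 and 7.23 in unirradiated wild type. The irradiated groups spanned the unirradiated ones. The differences were -0.33 ± 0.36 in knockout and -0.14 ± 0.36 in wild type (adjusted p = 0.54 and 0.81, limma). The dimmer Elavl4 probe sets did not share this pattern. Probe set 1450258_a_at gave -0.46 ± 0.41 in knockout and 0.48 ± 0.41 in wild type, opposite in sign to the brightest one in wild type. Probe set 1452894_at gave 0.02 ± 0.50 in knockout and -0.02 ± 0.50 in wild type.

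Uchl1, the neuronal ubiquitin hydrolase PGP9.5 that also serves as a pan-neuronal stain, was at 8.0, 7.41 and 7.84 in irradiated knockout, 7.39, 7.62 and 8.0 in irradiated wild type, 7.67 and 8.15 in unirradiated knockout and 7.41 and 7.57 in unirradiated wild type. Irradiated and unirradiated arrays overlapped in both genotypes. The differences were -0.16 ± 0.28 in knockout and 0.18 ± 0.28 in wild type, with 95% intervals of -0.78 to 0.47 and -0.44 to 0.81.

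Ret, the receptor through which GDNF keeps enteric neuron precursors alive and migrating, was at 8.10, 7.04 and 8.14 in irradiated knockout, 7.83, 7.46 and 7.73 in irradiated wild type, 7.68 and 7.08 in unirradiated knockout and 6.82 and 7.34 in unirradiated wild type. In wild type all 3 irradiated arrays were above both unirradiated arrays, and in knockout the groups overlapped. The differences were 0.38 ± 0.37 in knockout and 0.59 ± 0.37 in wild type (adjusted p = 0.50 and 0.28, limma). At the dimmer Ret probe set 1421359_at they were 0.16 ± 0.53 in knockout and -0.16 ± 0.53 in wild type.

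Nos1, the neuronal nitric oxide synthase of inhibitory motor neurons, was at 8.88, 8.16 and 9.07 in irradiated knockout, 7.89, 8.76 and 8.06 in irradiated wild type, 7.39 and 8.01 in unirradiated knockout and 7.94 and 8.54 in unirradiated wild type. In knockout the irradiated arrays were all above the unirradiated arrays, while in wild type they overlapped. The difference was 1.00 ± 0.36 in knockout, which did not pass the test (unadjusted p = 0.0203, adjusted p = 0.072, limma), and -0.00 ± 0.36 in wild type. Leaving out 1 array at a time, the knockout difference ran from 0.69 to 1.31. Without replicate 2 of irradiated knockout, the array with the lowest Nos1 of its group, it was 1.27 and passed (adjusted p = 0.024, limma).

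The other 3 Nos1 probe sets differed among themselves. Probe set 1438483_at read 7.74, 7.28 and 7.91 in irradiated knockout, 6.65, 7.15 and 6.76 in irradiated wild type, 7.46 and 7.0 in unirradiated knockout and 5.45 and 6.63 in unirradiated wild type. Here the knockout arrays were above the wild type arrays in both conditions, by 0.79 ± 0.36 after irradiation and 1.18 ± 0.44 without it (adjusted p = 1.00 and 0.29, limma, every probe set without a filter). The difference between irradiated and unirradiated was 0.42 ± 0.40 in knockout and 0.81 ± 0.40 in wild type. Probe set 1422949_at, below the array's median on every array, again had all irradiated arrays above the unirradiated ones in knockout (5.76 to 6.12, against 3.21 to 5.10) and overlapping groups in wild type, with 1.78 ± 0.61 in knockout and 0.48 ± 0.61 in wild type (adjusted p = 0.089 and 0.69). Probe set 1458626_at, the dimmest, overlapped in both genotypes, with -0.066 ± 1.28 in knockout and 0.73 ± 1.28 in wild type.

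Nos1 is also transcribed in skeletal muscle, and striated muscle markers differed widely between arrays. Of 15 tested, 2 rose in irradiated knockout (14.0% of all genes) and 6 rose in irradiated wild type (15.8% of all genes). Of the risen, 2 in knockout and 5 in wild type rose from below the median on the unirradiated arrays. The mean signal of the 15 markers was 10.11 to 12.01 in irradiated knockout and 5.28 to 11.20 in irradiated wild type. It was 8.32 to 8.74 in unirradiated knockout and 4.69 to 4.71 in unirradiated wild type. Both knockout groups had more of it than unirradiated wild type, and its part in the Nos1 values was not tested.

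Vip, whose peptide relaxes gut muscle and drives secretion, was at 11.49, 10.95 and 11.28 in irradiated knockout, 10.66, 11.28 and 11.91 in irradiated wild type, 10.67 and 10.99 in unirradiated knockout and 9.45 and 10.54 in unirradiated wild type. In wild type all irradiated arrays were above the unirradiated arrays, in knockout the groups met only at their edges, and replicate 1 of unirradiated wild type stood lowest. Vip averaged 11.24 ± 0.27 in irradiated knockout and 11.28 ± 0.62 in irradiated wild type (SD, n = 3 each), and 10.83 ± 0.23 in unirradiated knockout and 9.99 ± 0.77 in unirradiated wild type (SD, n = 2 each). The means of the irradiated groups differed by less than their spread.

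Irradiated wild type had 2.44-fold the Vip signal of unirradiated wild type, a difference of 1.29 ± 0.38 with a 95% interval of 0.43 to 2.14 (adjusted p = 0.037, limma). In knockout the difference was 0.41 ± 0.38 (adjusted p = 0.47), and averaged over both genotypes Vip rose by 0.85 ± 0.27 (adjusted p = 0.032). The wild type call was lost without replicate 1 of unirradiated wild type, where the difference was 0.74 (adjusted p = 0.29), without replicate 2 or 3 of irradiated wild type (1.29 and 0.98, adjusted p = 0.084 and 0.087), and, through the shared estimate of spread, without either unirradiated knockout array or replicate 3 of irradiated knockout (adjusted p = 0.052 to 0.053). The averaged call was lost without replicate 1 of unirradiated wild type (0.58, adjusted p = 0.14), and also without either unirradiated knockout array, irradiated knockout replicate 1 or 3, or irradiated wild type replicate 2 (adjusted p between 0.057 and 0.11). With the sex transcript pattern as a covariate, which only replicate 1 of irradiated knockout can separate from irradiation, the wild type difference was 0.91 (adjusted p = 0.64) and the averaged one 0.60 (adjusted p = 0.47).

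**Figure D3:**
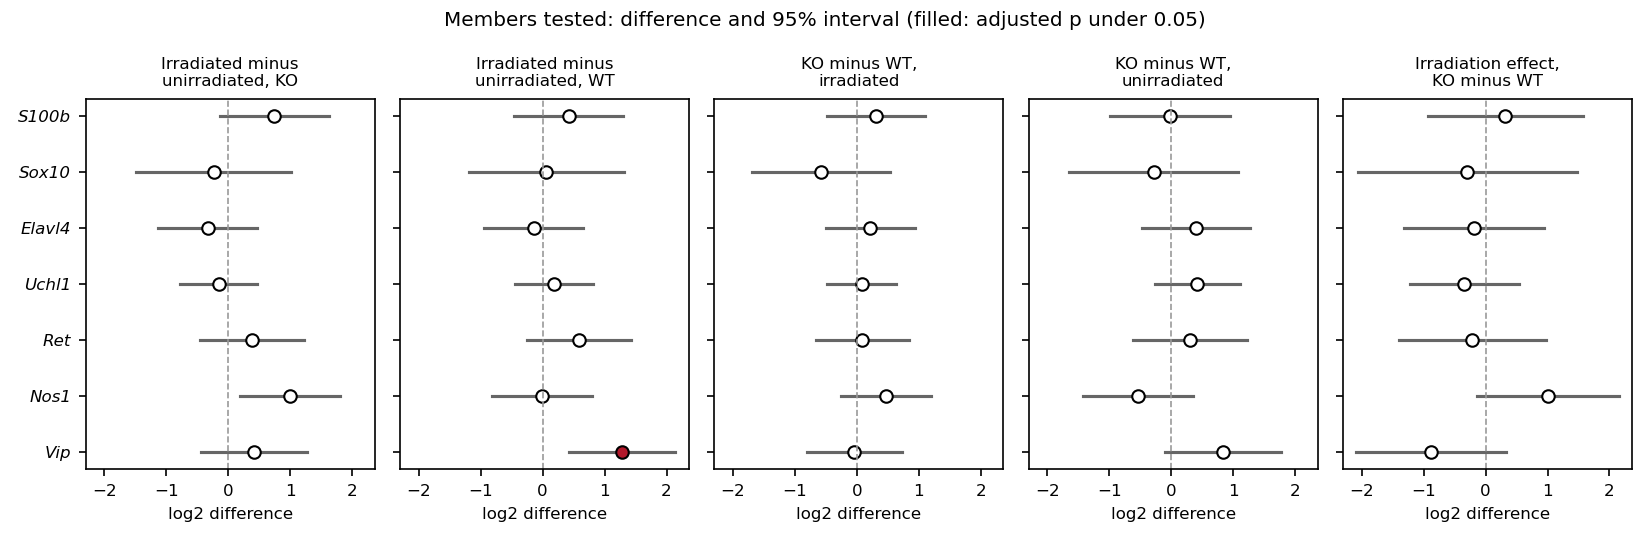
Log2 difference of the 7 tested genes with its 95% interval in 5 comparisons, filled where the adjusted p was under 0.05. Only Vip in irradiated against unirradiated wild type is filled, and of the other intervals only that of Nos1 in knockout leaves out 0.

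For irradiation in knockout, none of the 7 tested genes passed, and 1 (Nos1) had an unadjusted p under 0.05, where 23.5% of all 12568 genes passed and 37.7% had an unadjusted p under 0.05. For irradiation in wild type, 1 of 7 passed (Vip), also the only one with an unadjusted p under 0.05, where 24.1% of all genes passed and 37.7% had such an unadjusted p. For the average over genotypes, 1 of 7 passed (Vip), where 39.0% did. The median difference over the 7 genes was 0.38 in knockout, against 0.01 over all genes, and 0.18 in wild type, against 0.07 over all genes. Under quantile normalization the wild type median of the 7 turned to -0.18, with -0.04 over all genes. S100b is the one gene of the 7 that passed the filter through a single group, irradiated knockout, and without it the median over 6 genes was 0.11 in knockout and 0.12 in wild type. Of these 6 genes, the irradiated arrays were all above the unirradiated ones for 1 in knockout (Nos1) and 2 in wild type (Ret and Vip). Over all genes the irradiated arrays were all above the unirradiated ones for 28.4% in knockout and 30.8% in wild type.

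For knockout against wild type after irradiation, none of the 7 genes passed in limma and none had an unadjusted p under 0.05. This comparison called 0.0% of all genes, and 3.98% had an unadjusted p under 0.05. The differences ran from -0.58 ± 0.50 for Sox10 to 0.47 ± 0.32 for Nos1, with a median of 0.08 over the 7 and 0.00 over all genes. Vip differed by -0.04 ± 0.34, with an interval of -0.81 to 0.73, and Uchl1 by 0.08 ± 0.25, with an interval of -0.48 to 0.64. No gene of the 7 had groups that did not overlap, as 8.42% of all genes did. Genotype and sex are largely mixed here, as only replicate 1 of irradiated knockout shared the high Xist of irradiated wild type. With the sex transcript pattern as a covariate the sign changed for Sox10 (0.24) and Vip (0.21).

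For knockout against wild type without irradiation, none of the 7 passed and none had an unadjusted p under 0.05, where 1.23% of all genes passed and 16.6% had an unadjusted p under 0.05. Both knockout arrays were above both wild type arrays for Vip (0.84 ± 0.42, adjusted p = 0.35), Uchl1 (0.42 ± 0.31, adjusted p = 0.53) and Elavl4 (0.40 ± 0.39, adjusted p = 0.65). That is 3 of 7 genes, where 28.9% of all genes had both knockout arrays above both wild type arrays. Nos1 differed by -0.54 ± 0.40 and overlapped. Its other probe sets gave 1.18 ± 0.44 (1438483_at, without overlap), -1.15 ± 0.67 (1422949_at) and -0.81 ± 1.41 (1458626_at).

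The difference between the irradiation effects, knockout minus wild type, passed for none of the 7 genes, at an unadjusted or an adjusted p under 0.05, where 0.207% of all genes passed and 10.4% had an unadjusted p under 0.05. It was largest for Nos1, at 1.01 ± 0.51 with an interval of -0.14 to 2.15 (adjusted p = 0.55, limma). For Vip it was -0.88 ± 0.54 with an interval of -2.09 to 0.34 (adjusted p = 0.62). The other Nos1 probe sets differed in sign, at -0.39 ± 0.56 (1438483_at), 1.30 ± 0.86 (1422949_at) and -0.80 ± 1.82 (1458626_at). The genotypes were thus not shown to differ in their Nos1 or Vip response, although only one of them passed the Vip test. Sex is mixed into this comparison too, and with the sex covariate the sign changed for Sox10 (0.52) and Ret (0.13).

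Enteric neuron genes beyond the 5 were read from a list of 43, of which 41 were measured and 24 passed the filter. None passed in limma for irradiation in knockout (23.5% of all genes) or in wild type (24.1%). None passed for knockout against wild type after irradiation (0.0%) or without it (1.23%), or for the difference of the irradiation effects (0.207%). With an unadjusted p under 0.05 there were 1 in knockout and 3 in wild type (37.7% of all genes in each). There were 0 for knockout against wild type after irradiation (3.98%), 2 without irradiation (16.6%) and 0 for the difference of effects (10.4%). The median difference was -0.02 in knockout and 0.25 in wild type, and the wild type median turned to -0.10 under quantile normalization. Averaged over genotypes, 2 of 24 rose (8.33%, against 39.0% of all genes called in either direction), and 0 to 3 did under the alternatives, with 0 under the sex covariate and without replicate 1 of unirradiated wild type, replicate 1 of unirradiated knockout or replicate 3 of irradiated wild type. They were Stmn2, a microtubule regulator of growing and mature axons (1.09 ± 0.35, adjusted p = 0.032), and Penk, the precursor of the enkephalin peptides (0.73 ± 0.23, adjusted p = 0.030).

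Stmn2 was at 9.64, 8.72 and 8.66 in irradiated knockout, 8.10, 9.65 and 9.77 in irradiated wild type, 7.80 and 8.50 in unirradiated knockout and 7.74 and 7.97 in unirradiated wild type. All irradiated arrays were above the unirradiated arrays of their genotype. Its difference was 0.86 ± 0.49 in knockout (adjusted p = 0.23, limma) and 1.32 ± 0.49 in wild type (adjusted p = 0.080). Npy, a peptide of enteric interneurons and sympathetic fibres, gave 2.44 ± 0.87 in wild type (adjusted p = 0.070), where its 2 unirradiated arrays lay far apart, at 3.82 and 6.50.

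Between genotypes without irradiation, Calb2 (calretinin, a calcium buffer of excitatory motor neurons and sensory neurons) differed by 1.03 ± 0.42 and Rtn1, a reticulon of neuronal endoplasmic reticulum, by 0.75 ± 0.29 (adjusted p = 0.26 and 0.24, limma). After irradiation the smallest p in the list belonged to Stmn3 (0.66 ± 0.34) and Hand2 (0.49 ± 0.31), each with an adjusted p of 1.00. For the difference of the irradiation effects they belonged to Calb2 (-1.05 ± 0.54) and Tac1 (1.01 ± 0.54), the precursor of substance P.

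Genes of enteric glia and Schwann cell precursors beyond the 3 were read from a list of 23, of which 21 were measured and 17 tested. In irradiated knockout 5 rose and 2 fell, against 1763 of 12568 genes (14.0%) that rose and 1194 (9.5%) that fell in all. In irradiated wild type 7 rose and 1 fell, against 15.8% that rose and 8.34% that fell in all. The median difference was 0.46 in knockout and 0.73 in wild type, against 0.01 and 0.07 over all genes. Of the genes that rose, 2 in each genotype, Gpm6a and Sox2, were below the median on both unirradiated arrays of that genotype and passed the filter through arrays where they were higher, so these counts and medians are a description. The same held for 36.4% of all genes that rose in knockout and 29.1% in wild type. In the knockout comparison the count was 1 risen and 1 fallen without replicate 2 of unirradiated knockout, 2 and 2 without replicate 1 of that group, and 3 and 2 without replicate 1 of irradiated knockout, the array with high Xist, or replicate 3. In wild type it was 3 risen under quantile normalization and without replicate 2 of irradiated wild type, 2 risen and 0 fallen without replicate 1 of unirradiated wild type, and 0 and 0 with the sex transcript pattern as a covariate.

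Gpm6a, a membrane glycoprotein of neurons and glia, was at 8.26, 7.89 and 8.38 in irradiated knockout, 7.55, 7.71 and 8.81 in irradiated wild type, 5.19 and 4.51 in unirradiated knockout and 5.11 and 3.85 in unirradiated wild type. The 6 irradiated arrays stood apart from the 4 unirradiated ones, by 3.32 ± 0.51 in knockout and 3.54 ± 0.51 in wild type. Gpm6a passed the filter through the irradiated arrays alone, so its values are a description. Matn2, a matrix protein laid down by Schwann cells and by other connective tissue cells, rose by 1.37 ± 0.29 in knockout and 1.86 ± 0.29 in wild type. Gpm6b, a proteolipid relative of Gpm6a, rose by 1.32 ± 0.37 in knockout and 1.73 ± 0.37 in wild type.

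The genes that fell in this list were L1cam, a neural adhesion molecule also present in epithelium (-1.26 ± 0.22 in knockout and -1.06 ± 0.22 in wild type), and Erbb3, the neuregulin receptor of Schwann cell precursors and of gut epithelium (-1.09 ± 0.22 in knockout). The genes that rose also included Sox2 and Scn7a in both genotypes and Lgi4 and Ednrb in wild type, named after their values were seen. Sox2, which marks glia and also squamous epithelium, rose by 3.07 ± 0.88 in knockout and 3.12 ± 0.88 in wild type. Like Gpm6a, Sox2 passed the filter through the irradiated arrays alone, so its values are a description. No gene of the list passed in limma in a genotype comparison or for the difference of the irradiation effects. An unadjusted p was under 0.05 for 1 after irradiation, 1 without it and 0 for the difference (3.98%, 16.6% and 10.4% of all genes).

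**Figure D4:**
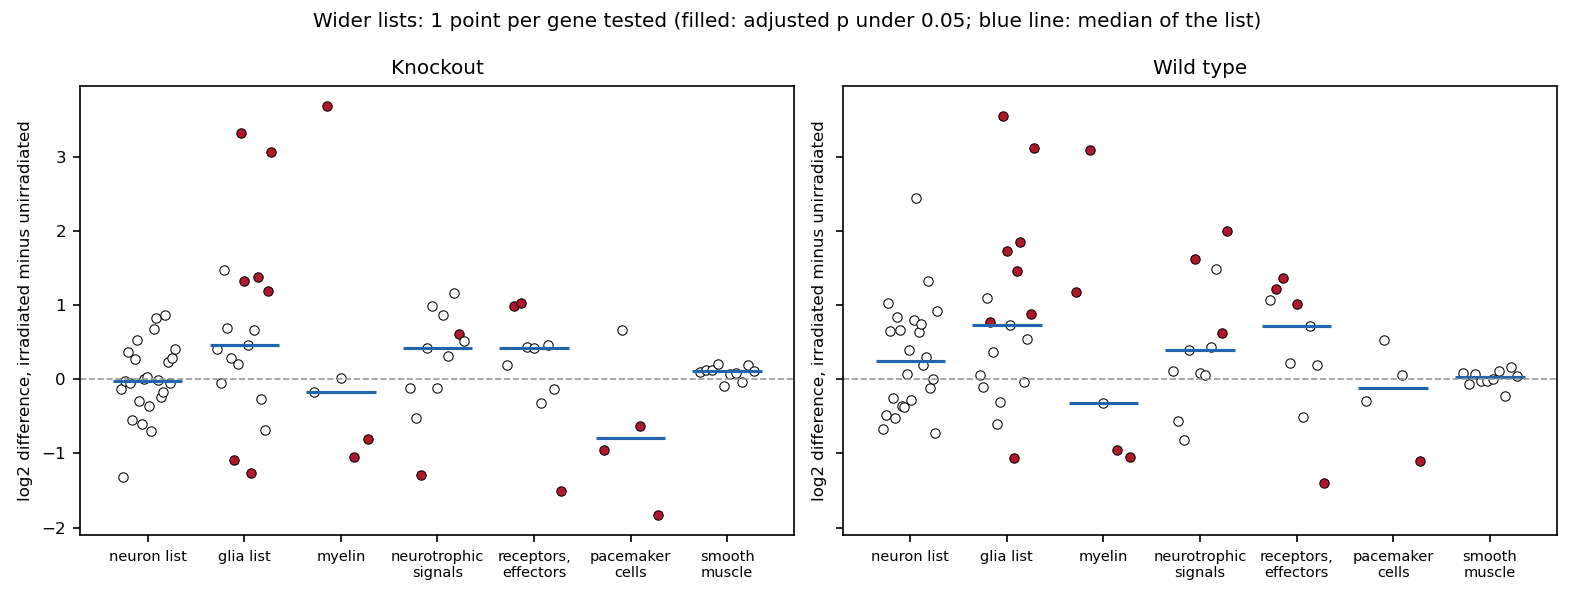
Log2 difference between irradiated and unirradiated arrays for each tested gene of 7 lists, in knockout (left) and wild type (right), filled where the adjusted p was under 0.05, with the list's median as a line. The neuron and smooth muscle lists hold no filled point, while the glia list holds points filled on both sides of 0.

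Myelin genes of Schwann cells had 5 tested of 9 listed, with 1 risen and 2 fallen in knockout (14.0% and 9.5% of all genes) and 2 risen and 2 fallen in wild type (15.8% and 8.34% of all genes). Under the alternatives the counts were 1 to 2 risen and 1 to 2 fallen in knockout, and 0 to 2 risen and 0 to 2 fallen in wild type, where the sex covariate left none and leaving out either unirradiated wild type array left 1 and 1. Egr2, the transcription factor that starts myelination and is also induced in immune cells and fibroblasts, rose by 3.68 ± 0.62 in knockout and 3.10 ± 0.62 in wild type. It was below the median on all unirradiated arrays and passed the filter through the irradiated arrays alone. The values of Egr2 and the counts of risen myelin genes that hold it are therefore a description. Pmp22, a myelin membrane protein also made by epithelium, fell by 0.80 ± 0.14 on the log2 scale in knockout and by 1.05 ± 0.14 in wild type. Pllp, a membrane protein of myelin and epithelium, fell by 1.05 ± 0.30 in knockout and by 0.96 ± 0.30 in wild type. Drp2, a dystrophin relative of the Schwann cell surface, rose in wild type by 1.18 ± 0.34 (adjusted p = 0.033, limma).

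Neurotrophic and migration signals, the ligands, coreceptors and guidance cues of the enteric nervous system, had 11 tested of 19 listed. In knockout 1 rose and 1 fell (14.0% and 9.5% of all genes), and in wild type 3 rose (15.8% of all genes) and 0 fell. The knockout counts were 0 to 3 risen and 0 to 1 fallen under the alternatives, with 0 risen without either unirradiated knockout array, without replicate 1 or 3 of irradiated knockout and without replicate 2 or 3 of irradiated wild type, 3 risen without replicate 2 of irradiated knockout, and 0 fallen without replicate 2 of unirradiated knockout. Sema3a, which repels growing axons, rose by 0.61 ± 0.19 in knockout and 0.62 ± 0.19 in wild type. Gfra2, the neurturin coreceptor of Ret, rose by 1.63 ± 0.40 in wild type, and Slit2, another guidance cue, rose by 2.0 ± 0.39 there, where both unirradiated arrays were below the median. Erbb2, a receptor of neuregulin signalling shared by glia and epithelium, fell by 1.29 ± 0.30 on the log2 scale in knockout. With the sex transcript pattern as a covariate none of the 3 genes passed in wild type, and none did without replicate 1 of unirradiated wild type, while 1 did without its replicate 2 or without replicate 2 of irradiated wild type.

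The receptors and effectors that answer to neuropeptides and nitric oxide had 9 tested of 18 listed. In knockout 2 rose and 1 fell (14.0% and 9.5% of all genes), and in wild type 3 rose and 1 fell (15.8% and 8.34% of all genes). In knockout 1 rose without any one of the arrays of that genotype except replicate 2 of irradiated knockout, without which 4 did, and in wild type 1 rose without replicate 1 of unirradiated wild type and 0 with the sex covariate. Gucy1b1 and Gucy1a1, the subunits of the soluble guanylate cyclase that senses nitric oxide in muscle, rose by 1.02 ± 0.19 and 0.98 ± 0.27 in knockout and by 1.37 ± 0.19 and 1.22 ± 0.27 in wild type. Vipr1, the VIP receptor of colonic epithelium, was at 8.93, 9.45 and 9.42 in irradiated knockout, 8.92, 9.13 and 9.18 in irradiated wild type, 10.77 and 10.77 in unirradiated knockout and 10.76 and 10.19 in unirradiated wild type. Every irradiated array was below every unirradiated array, and Vipr1 fell by 1.5 ± 0.21 on the log2 scale in knockout and by 1.40 ± 0.21 in wild type (adjusted p = 0.0015 and 0.0022, limma). Markers of colonocytes and goblet cells, the cells that carry this receptor, fell at 6 of 12 genes in each genotype. Over all genes 9.5% fell in knockout and 8.34% in wild type. The mean signal of the 12 markers was 11.55 to 12.79 in irradiated knockout and 11.81 to 12.34 in irradiated wild type. It was 13.30 to 13.68 in unirradiated knockout and 13.49 to 13.80 in unirradiated wild type. Nos3, the nitric oxide synthase of endothelium, rose in wild type by 1.01 ± 0.32 (adjusted p = 0.048).

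Markers of the cells next to the plexuses differed in their direction. Of 4 markers of the pacemaker cells of Cajal, 3 fell in knockout and 1 in wild type (9.5% and 8.34% of all genes). Ano1, their chloride channel, fell in knockout by 0.96 ± 0.22 on the log2 scale, as did Kit by 0.63 ± 0.15. Thbs4, a matrix protein, fell by 1.83 ± 0.29 in knockout and 1.11 ± 0.29 in wild type. The remaining marker, Gjc1, was higher after irradiation, by 0.66 in knockout and 0.53 in wild type, without a call in either. Averaged over genotypes Gjc1 rose by 0.60 and passed, where 39.0% of all genes were called. Kit is shared with mast cells, which had 6 tested markers. In knockout 5 of the mast cell markers rose and 1, Kit itself, fell (14.0% and 9.5% of all genes). In wild type 4 rose (15.8% of all genes). Of the risen, 4 in knockout and 3 in wild type rose from below the median. None of 10 smooth muscle markers passed in any comparison in limma. An unadjusted p under 0.05 was reached by 0 in knockout and 0 in wild type (37.7% of all genes in each). It was reached by 3 for knockout against wild type after irradiation (3.98%) and by 1 without it (16.6%). The mean signal of the 10 markers was 12.52 to 12.95 in irradiated knockout and 12.27 to 12.42 in irradiated wild type. It was 12.49 to 12.67 in unirradiated knockout and 12.30 to 12.34 in unirradiated wild type, a far smaller range than that of striated muscle.

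Other cells that share members of these lists differed too. Of 9 markers of squamous epithelium, which also makes Sox2, 9 rose in knockout and 7 in wild type (14.0% and 15.8% of all genes). Of the risen, 9 in knockout and 6 in wild type rose from below the median on the unirradiated arrays. The mean signal of the 9 markers was 10.72 to 12.65 in irradiated knockout and 9.48 to 11.79 in irradiated wild type. It was 4.44 to 4.68 in unirradiated knockout and 4.21 to 5.14 in unirradiated wild type. Enteroendocrine cells, which share neuronal vesicle genes, had 1 of 10 markers risen in knockout (Tph1, 1.05 ± 0.31) and 1 fallen in wild type (Neurod1, -1.25 ± 0.31). Over all genes 14.0% rose in knockout and 8.34% fell in wild type. Tph1 rose from below the median on the unirradiated knockout arrays, at 6.91 and 6.79, against 7.57 and 8.47 in unirradiated wild type. The part of these cells in the differences of the neuron and glia lists was not tested.

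In each group most neuron genes, and in part the glia genes, were lowest on the same array. Replicate 1 of unirradiated wild type had the lower signal for 7 of the 7 tested genes and for 22 of the 24 genes of the neuron list, where it was the lower for 48.2% of all genes. Replicate 2 of irradiated knockout was the lowest of its group for 6 of the 7 genes, 5 of the 5 neuron genes and 16 of the 24 (40.4% of all genes). Replicate 1 of irradiated wild type was the lowest for 6 of the 7 and 18 of the 24 (42.0% of all genes), and replicate 1 of unirradiated knockout was the lower for 6 of the 7 and 15 of the 24 (54.2% of all genes).

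The mean of the 5 neuron genes was 8.74, 8.05 and 8.83 in irradiated knockout, 8.09, 8.42 and 8.63 in irradiated wild type, 8.17 and 8.39 in unirradiated knockout and 7.75 and 8.24 in unirradiated wild type. The gap between arrays of one group was up to 0.77, and the gap between group means was at most 0.55. After each group's mean was subtracted, the 10 pairs of neuron genes all correlated above 0 over the 10 arrays, from 0.32 to 0.80 with a median of 0.56, where 50.3% of all gene pairs did. S100b and Sox10 correlated at 0.58, and 9 of 10 pairs of a glia gene with a neuron gene correlated above 0, with a median of 0.33. These are descriptions over 10 arrays that share extraction and hybridisation steps.

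**Figure D5:**
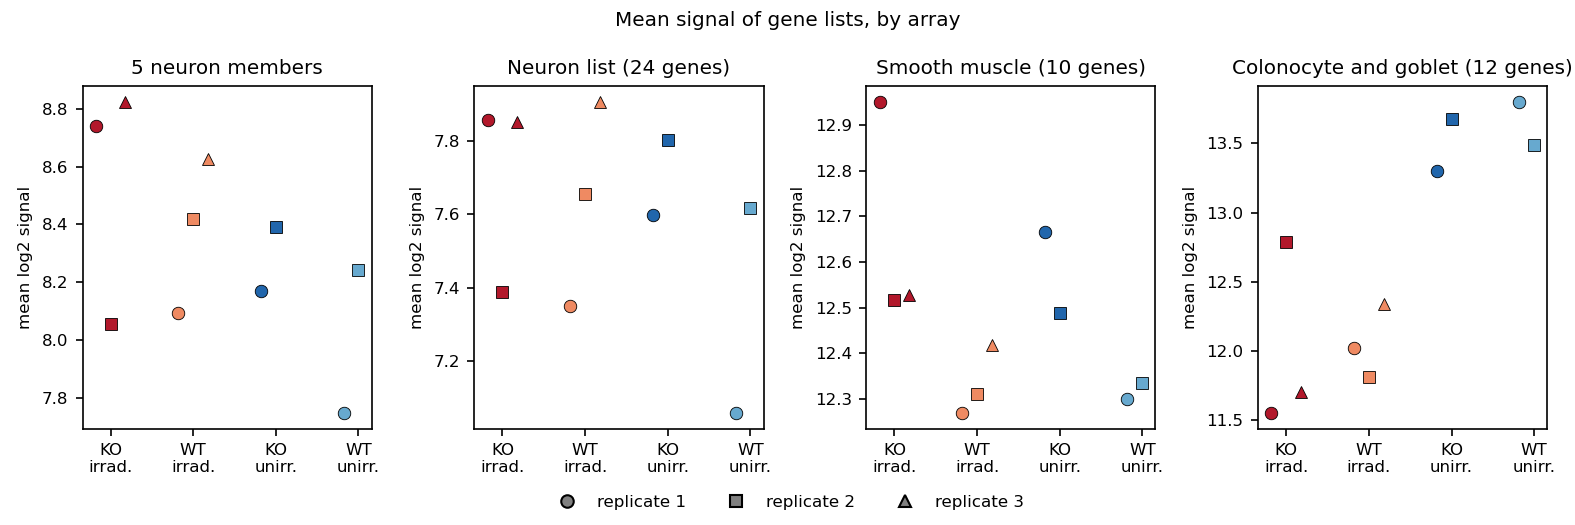
Mean log2 signal per array of the 5 neuron genes, the neuron list, smooth muscle markers and colonocyte and goblet cell markers, by group. Replicate 1 of unirradiated wild type is lowest for both neuron panels, and the colonocyte panel separates irradiated from unirradiated arrays while the neuron panels do not.

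The genes whose deviations were most like those of a member over the 10 arrays, by Pearson correlation among all genes tested, were Basp1 for Elavl4 (0.98), Fst for Uchl1 (0.98), Zfp651 for Ret (0.99), Rhbdd2 for Nos1 (0.96), Fn1 for Vip (0.96), Lrrc49 for S100b (0.97) and Tmod3 for Sox10 (0.96). The values come from the same arrays and processing, and nothing is drawn from them about shared function.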

How the data were processed

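Biotin-labelled cRNA from total RNA was hybridised to 10 Affymetrix arrays, per the labels' protocols. The authors computed the signals with MAS5, per the submitters' processing notes, with no version given there. The deposited values are log2 signals: raised to the linear scale, they had a trimmed mean (2% removed from both ends) of 500 on all arrays. Detection calls were not used, and 0 columns were left out. No normalization was added here. A gene's signal is that of its brightest probe set (by mean, among probe sets annotated with 1 gene), and genes whose signal exceeded the array's median on fewer than 2 arrays were not tested. Two-sided tests came from limma 3.58.1 in R 4.3.3, with 4 group means fitted to the 10 arrays, 6 residual degrees of freedom, an intensity trend in the variance prior and Benjamini-Hochberg adjustment over 12568 genes at 0.05. The labels call the replicates biological. A lone array, left when its partner was removed, was taken to vary as the remaining groups did.

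Members and lists were chosen with earlier results of these data known. Named were the 8 members with every probe set, up to 4 genes of each list past the threshold by smallest p (2 where none passed), the genes most like each member, Pdgfc and Xist. The settings varied were normalization (quantile), the pseudocount (16 or 64, linear), the filter, the choice of probe set, the replicate number as a block, the sex transcript pattern as a covariate and the removal of each array. Testing every probe set without a filter was added after seeing the data. The fit was tested on simulated data. Promoter windows came from RefSeq (GRCm38.p6), with the 250 bases before the start site used.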

Additional observations from a re-analysis of the deposited data

How the results depend on the processing

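Over 19 alternative settings, 712 of 798 differences of the 7 tested genes kept their direction and their side of the threshold, 16 lost the call, 5 gained one, and 65, all without a call, changed sign; the cause was not tested. The number of tested members called for irradiation in wild type was 1, and became 2 with the mean of probe sets (S100b was added, which passed the filter through irradiated knockout alone), 0 with the replicate block and 0 with the sex covariate; leaving out 1 array gave 0 to 1. For irradiation in knockout it was 0, 1 with the mean of probe sets, and 0 to 1 leaving out 1 array. Averaged over genotypes it was 1, then 2, 0 and 0 under the same settings and 0 to 2 leaving out 1 array.

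Of all genes, 3028 were called for irradiation in wild type, 1995 with the replicate block, 16 with the sex covariate and 1323 to 3469 leaving out 1 array. In knockout 2957 were called, 4499 testing every probe set, 1706 with the sex covariate and 1189 to 3596 leaving out 1 array. Averaged, 4905 were called, 7776 testing every probe set, 7699 doing so without a filter, 818 with the sex covariate and 3701 to 5429 leaving out 1 array. Between genotypes without irradiation 154 were called, 236 testing every probe set, 70 with the block and 41 to 255 leaving out 1 array, and of the calls 34.4% were higher in knockout, 22.4% under quantile normalization; after irradiation there were 0, and 0 to 3 leaving out 1 array. For the difference of the irradiation effects 26 were called, 16 with a pseudocount of 64, 42 testing every probe set, 3 with the block, 4 with the sex covariate and 14 to 35 leaving out 1 array. Testing every probe set raised the number of tests by construction.

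Changes of sign, all without a call, were as follows. For irradiation in wild type, Sox10 was -0.32 under quantile normalization, -0.54 with the mean of probe sets and -1.16 with the sex covariate, Uchl1 -0.18 and -0.19 under quantile normalization and the sex covariate, Elavl4 0.11 and Nos1 0.50 with the mean of probe sets, and S100b -0.069 with the sex covariate. Averaged, Uchl1 was -0.24, -0.091 and -0.23 under quantile normalization, the block and the sex covariate. For knockout against wild type after irradiation, Sox10 was 0.33 and 0.24 with the mean of probe sets and the sex covariate, Ret -0.018 and Nos1 -0.047 with the mean of probe sets, and Vip 0.21 with the sex covariate. Without irradiation, S100b was 0.37 and Ret -0.067 with the mean of probe sets. For the difference of effects, Elavl4 was 0.029 and Ret 0.0018 under quantile normalization, Ret 0.049, S100b -0.049 and Sox10 0.52 with the mean of probe sets, and Ret 0.13 and Sox10 0.52 with the sex covariate. Leaving out 1 array gave, in wild type, Elavl4 -0.34 to 0.025, Nos1 -0.30 to 0.29, S100b -0.0062 to 0.85 and Sox10 -0.36 to 0.48; in knockout, Sox10 -0.64 to 0.15 and Uchl1 -0.39 to 0.084; averaged, Sox10 -0.29 to 0.12 and Uchl1 -0.10 to 0.13. Between genotypes after irradiation it gave Elavl4 -0.055 to 0.48, Ret -0.11 to 0.45, Uchl1 -0.061 to 0.25 and Vip -0.35 to 0.27, and without irradiation S100b -0.44 to 0.41 and Sox10 -0.70 to 0.13. For the difference of effects it gave Elavl4 -0.46 to 0.080, Ret -0.51 to 0.15, S100b -0.11 to 0.75 and Sox10 -0.71 to 0.13.

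The 13 same-numbered pairs of arrays from different groups correlated, in their deviations from the group means, at -0.20 to 0.16. The 24 differently numbered pairs did so at -0.25 to 0.24. In groups of 2 the deviations mirror each other, so these ranges cannot show whether same-numbered arrays were processed together. With the replicate block, Vip was 1.12 in wild type (adjusted p = 0.076, limma) and 0.68 averaged (adjusted p = 0.092), both without a call. Dim genes (Gfap, S100b, Sox10) lie near or below the array median, where the signal limits what can be measured.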
